A study of Homo sapiens with 9 samples.

Results

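The expression response of UPCI-SCC-040 cells to 48 h of transforming growth factor beta 1 (TGF-β1) was described from 6 of the 9 RNA-seq libraries of the series, chosen by their titles as the 3 controls and the 3 libraries of the 48 h treatment. The line UPCI-SCC-040 derives from a tongue carcinoma of the squamous type. Control cells had received no TGF-β1 and carry a time of 0 h in their titles, and treated cells had received 5 ng/ml TGF-β1. Each group held 1 library from passage 12, 1 from passage 13 and 1 from passage 8, which are replicates 1, 2 and 3, and values per library are given in that order. The medium with TGF-β1 lacked fetal bovine serum and antibiotics, which the growth medium contained. Whether controls were also kept without serum is not stated in the labels. The effects of TGF-β1, of the missing serum and of the hours in culture therefore cannot be told apart. All libraries come from 1 cell line, and apart from passage no label marks them as separate cultures, so the p-values rest on a spread that may be technical. The 3 libraries of the 72 h treatment entered the statistical model as a separate group and are not described.

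TGF-β1 is a secreted dimer that brings together type II and type I receptor kinases, and the activated type I receptor phosphorylates SMAD2 and SMAD3, which join SMAD4 and bind DNA. In normal keratinocytes the pathway is known for arresting the cell cycle through inhibitors of cyclin-dependent kinases and for inducing genes of the extracellular matrix. In carcinomas it is studied for its part in invasion and in the loss of epithelial traits. Proteins that the pathway induces, such as SMAD7, SKIL and PMEPA1, restrain it in turn.

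Totals of the 6 libraries ran from 12544690 to 20438727 reads counted to genes, and the filter on low counts left 15440 genes. Levels are given as CPM, counts scaled to a library size corrected by the TMM method, so they are not corrected for transcript length. The squamous identity of the cells was checked with 10 marker genes, which were all above 1 CPM and summed to between 14269.9 and 25171 CPM in controls and between 32737 and 38631 CPM at 48 h. Of these markers, 5 rose and none fell, but 1 call was stable, and 1 rise was left without control 2, control 3 or 48 h replicate 1 and 3 without 48 h replicate 3. Markers of endothelium, leukocytes and melanocytes were nearly all under 1 CPM in every library (6 of 7, 6 of 7 and 4 of 5 genes), and 2 leukocyte and 2 melanocyte markers were at 0. Of 10 fibroblast markers, 6 stayed under 1 CPM in all 6 libraries, and the list summed to between 13.8 and 19.0 CPM in controls and to 117, 46.7 and 104 CPM at 48 h, in which COL1A1, COL6A3 and FAP passed the test, beside the matrix genes described below. FAP alone was stable, and these 3 calls became 1 when control 2 was left out. The part of other cells in those values was not tested. In bulk RNA, fewer cells with a transcript and less of it per cell cannot be told apart. The nuclear RNA MALAT1 took 0.247% to 0.351% of counts in controls and 0.420% to 0.507% at 48 h, and ribosomal protein transcripts took 2.50% to 2.92% and 1.66% to 2.09%.

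After 48 h, genes of sterol synthesis, collagens and other matrix proteins, integrins, lysosomes and the interferon response tended to higher CPM. Genes of ribosome assembly, DNA replication, mitosis and histones tended to lower CPM. CPM are relative to the library, so amounts of RNA per cell are not known. At an adjusted p of 0.05 (edgeR, quasi-likelihood, Benjamini-Hochberg) 2301 of the 15440 genes (14.9%) were higher and 2478 (16.0%) lower, together 4779 or 31.0%. The median log2 fold change was 0.00 over all tested genes, 1.02 over the genes called higher and -0.86 over those called lower. The rises reached further than the falls, with 326 genes higher and 152 lower by at least 4-fold, and 86 higher and 28 lower by at least 8-fold. Genes called higher took 14.1%, 12.9% and 14.0% of all counts in the controls and 28.4%, 26.4% and 28.2% at 48 h. Genes called lower went from 22.8%, 23.8% and 22.9% of counts to 11.0%, 11.8% and 11.7%. The number of calls fell when any 1 of these libraries was omitted, to 2860, 2631 and 2991 for control 1, 2 and 3. It was 2837, 3920 and 3668 for 48 h replicate 1, 2 and 3. Each omission also left fewer libraries in a group, so lost power and the part of a single library cannot be told apart. A call is named stable below when it held in the fit of all libraries, in each of the 6 fits that left out 1 control or 48 h library, with the passage as a block and in DESeq2. There were 2246 stable calls, 14.5% of tested genes, of which 1124 (7.28%) were higher and 1122 (7.27%) lower.

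**Figure D1:**
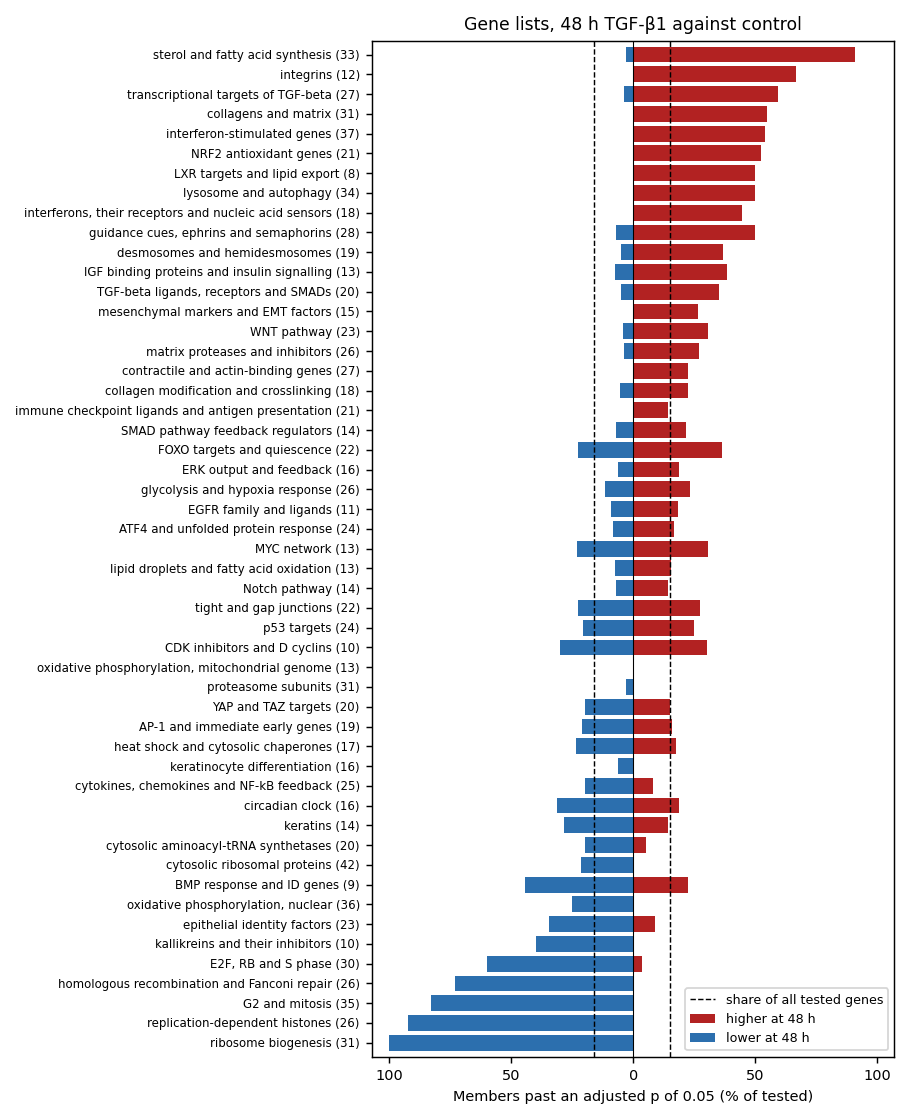
Horizontal bars show, for each gene list (tested members in parentheses), the percentage of members past an adjusted p of 0.05 that were higher (right, red) or lower (left, blue) at 48 h than in controls. Dashed lines mark the same shares over all tested genes, 14.9% higher and 16.0% lower, and ribosome biogenesis is the list with all of its 31 members called lower.

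Among protein-coding genes with a stable call, no overlap between groups and at least 10 CPM in the higher group, the 12 largest rises and 12 largest falls came from several pathways. SCD, the desaturase that makes monounsaturated fatty acids, measured 172, 143 and 171 CPM in controls and 2749.7, 4449 and 3553 CPM at 48 h. SOST (chr17:43753731-43758788, minus strand, GRCh38), which encodes sclerostin, a secreted inhibitor of WNT and BMP signalling, went from 0.965, 1.29 and 1.72 CPM to 18.7, 13.7 and 38.5 CPM, 4.16 ± 0.61 on the log2 scale with its approximate SE, at an adjusted p of 0.00235. It was under 2 CPM in every control and above 10 CPM in every treated library. TNFSF9, the ligand of the T cell receptor 4-1BB, went from 2.53, 1.66 and 1.93 CPM to 13.2, 20.2 and 31.5 CPM (3.39 ± 0.67, adjusted p = 0.00770). IL31RA, a receptor subunit for interleukin 31, went from 3.86, 2.74 and 3.87 CPM to 27.0, 24.6 and 55.3 CPM (3.35 ± 0.55, adjusted p = 0.00355). Both genes were highest at 48 h in the passage 8 library. PROC, which encodes the anticoagulant protein C, went from 2.14 ± 0.401 CPM to 20.9 ± 8.85 CPM (SD, n = 3; log2 fold change 3.27 ± 0.70, adjusted p = 0.0100), with every treated library above every control. The other rises included the sterol genes INSIG1 and MSMO1, the cholesterol transporter ABCG1, and OAS2, SP110 and SHFL, which are known as interferon-induced.

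The largest falls included a metabolic regulator, a retinoid enzyme, a transcription factor and inflammatory cytokines. TXNIP (chr1:145992435-145996600, minus strand, GRCh38), a thioredoxin-binding arrestin that limits glucose uptake, measured 345, 212 and 286 CPM in controls and 29.0, 26.4 and 24.3 CPM at 48 h. The treated libraries lay within 5 CPM of each other and far below the controls, and the log2 fold change was -3.40 ± 0.19 (adjusted p = 4.19e-05). ALDH1A3, a retinaldehyde dehydrogenase that makes retinoic acid, fell from 411, 505 and 343 CPM to 43.4, 55.4 and 48.3 CPM (-3.10 ± 0.28, adjusted p = 0.000444). RUNX2, a transcription factor best known in bone, fell from 34.1, 44.0 and 29.8 CPM to 7.28, 5.02 and 3.02 CPM (-2.80 ± 0.29, adjusted p = 0.000558). None of these 3 genes overlapped between groups. IL6 fell from 24.5, 34.7 and 18.1 CPM to 0.848, 0.245 and 2.36 CPM (-4.55 ± 0.79, adjusted p = 0.00440), and IL1B, another inflammatory cytokine, from 89.8, 88.8 and 82.3 CPM to 9.72, 9.01 and 4.81 CPM (-3.46 ± 0.69, adjusted p = 0.00799). The remaining falls were ID1 and ID3, the E2F genes E2F2 and E2F8, and the histone genes H2AC25, H2BC13 and H2BC26.

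**Figure D2:**
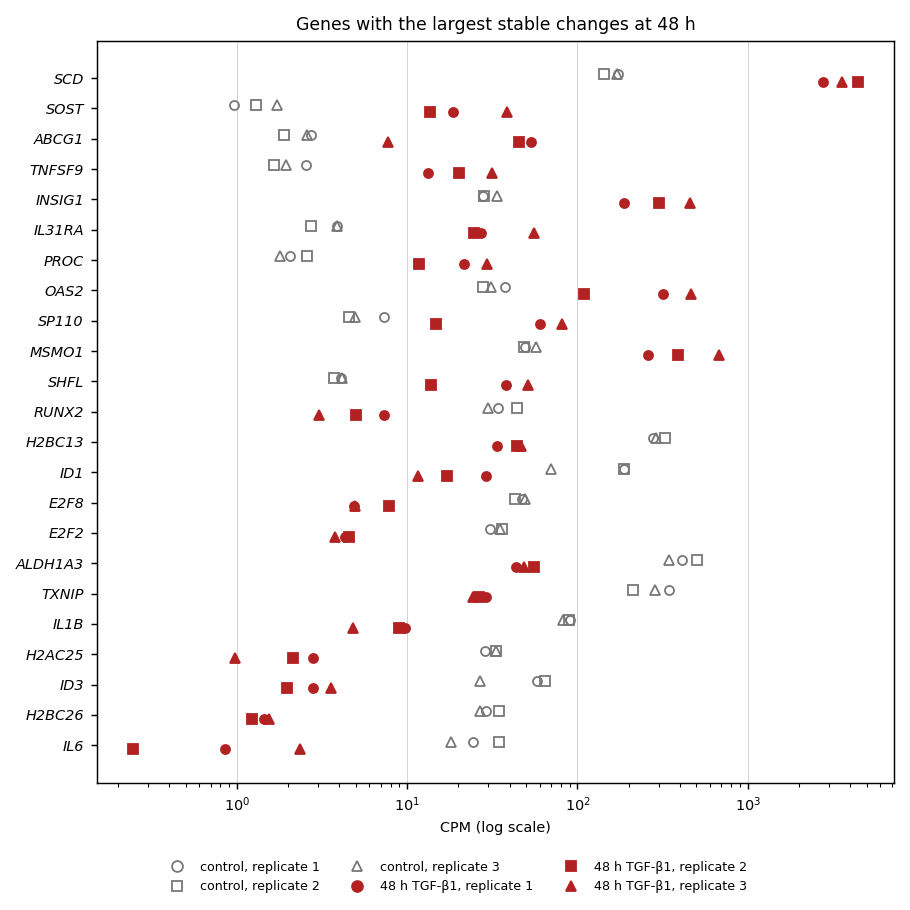
Points show the level in each library (CPM, log axis) of 11 of the 12 genes with the largest stable rises and of the 12 with the largest stable falls, with open grey symbols for controls, filled red symbols for 48 h, and the symbol's shape marking the replicate. No gene has a control between its treated libraries, and the treated libraries of ABCG1 run from 7.74 to 53.3 CPM.

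The ligand and receptor genes of the TGF-β family changed in part. Of 20 tested ligands, receptors, latent TGF-β binding proteins and SMADs, 7 rose and 1 fell, with a median log2 fold change of 0.26. TGFB1 itself measured 28.8, 26.2 and 36.7 CPM in controls and 80.5, 76.0 and 50.9 CPM at 48 h, a log2 rise of 1.18 ± 0.20 at an adjusted p of 0.00282. TGFB2 showed lower values in every treated library (13.7, 15.6 and 11.8 against 6.33, 4.35 and 7.01 CPM) but did not pass the test (adjusted p = 0.0798). Among receptors, TGFBR1, the type I receptor, rose from 163 ± 16.0 to 264 ± 24.4 CPM (SD, n = 3; log2 fold change 0.70 ± 0.13, adjusted p = 0.00412). The type II receptor TGFBR2 was at 76.4 ± 5.28 and 71.9 ± 19.6 CPM, which overlapped (adjusted p = 0.782). ACVR1, a type I receptor of the BMP and activin branch, measured 11.0, 11.0 and 11.0 CPM in controls and 27.8, 23.6 and 31.7 CPM at 48 h (1.33 ± 0.25, adjusted p = 0.00426). BMPR2, the type II receptor for BMPs, rose by 1.23 ± 0.14 (adjusted p = 0.000767). LTBP2, a matrix protein of the latent TGF-β binding family, rose from 122, 171 and 168 CPM to 615, 471 and 579 CPM (1.85 ± 0.18, adjusted p = 0.000447), and LTBP1 and LTBP4 were the other members called higher.

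Among the signal transducers, SMAD3 was the only called member of this list that was lower, and it measured 72.3, 78.8 and 67.7 CPM in controls and 51.6, 30.9 and 32.4 CPM at 48 h. Its log2 fold change was -0.93 ± 0.19 (adjusted p = 0.00653), and it did not overlap between groups. SMAD2, the other receptor-activated SMAD of the TGF-β branch, was at 467, 462 and 392 CPM in controls and 471, 498 and 512 CPM at 48 h (adjusted p = 0.391), and SMAD4 did not pass the test either (0.16 ± 0.12, adjusted p = 0.349). Of 14 feedback regulators, 3 rose (21.4%, against 14.9% of all tested genes) and 1 fell (7.14%, against 16.0%). Their median was 0.29, and with the passage as a block 5 were called higher. SMAD7, which recruits ubiquitin ligases to the receptors, rose from 88.9, 77.9 and 67.8 CPM to 181, 168 and 156 CPM (1.11 ± 0.15, adjusted p = 0.00127). PMEPA1, a membrane protein that sequesters SMADs, rose from 177, 200.2 and 187 CPM to 798, 614 and 591 CPM (1.83 ± 0.21, adjusted p = 0.000666). SKIL, a nuclear SMAD corepressor, rose from 115, 155 and 111 CPM to 259, 204 and 303 CPM (1.01 ± 0.18, adjusted p = 0.00389), whereas its relative SKI was at 24.8 ± 1.60 and 30.3 ± 5.03 CPM and did not pass the test (adjusted p = 0.192). TGIF2, a homeodomain corepressor of SMADs, fell by 0.79 in log2 units, at an adjusted p of 0.00573. All 4 of these calls were stable.

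Transcriptional targets of TGF-β were mostly higher, 16 of 27 with 1 lower and a median log2 fold change of 1.41, and 12 of the rises were stable. ITGB6 (chr2:160099666-160200313, minus strand, GRCh38), the β6 chain of an integrin that releases latent TGF-β, went from 61.3, 72.5 and 88.4 CPM to 406, 278 and 709.9 CPM (2.65 ± 0.54, adjusted p = 0.00835). TGFBI, a secreted adhesion protein, rose from 1028, 1078 and 745 CPM to 4214, 2194 and 4047 CPM (1.87 ± 0.36, adjusted p = 0.00529). In both genes the lowest treated library was above the highest control. The transcription factors JUNB and BHLHE40 rose by 1.47 ± 0.18 and 2.08 ± 0.13 (adjusted p = 0.000914 and 4.19e-05). CDKN2B, which encodes the CDK4 and CDK6 inhibitor p15, measured 15.7, 11.1 and 13.8 CPM in controls and 86.6, 36.3 and 114 CPM at 48 h (2.54 ± 0.66, adjusted p = 0.0210). Its call was lost without any 1 of the libraries except 48 h replicate 2, with an adjusted p of up to 0.0775. LIF was the member called lower, and its call was lost without control 2 or 3 or without 48 h replicate 1 or 2. Targets of the textbook list that did not pass the test included CCN2, THBS1, INHBA and TAGLN.

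The BMP branch moved in both directions. Of 9 tested genes of BMP signalling and its response, 4 were lower and 2 higher (median -0.46), all of them stable. The inhibitors of differentiation ID1, ID2 and ID3 encode helix-loop-helix proteins that block basic helix-loop-helix factors. ID3 measured 57.6, 64.7 and 26.6 CPM in controls and 2.79, 1.96 and 3.59 CPM at 48 h, a log2 fold change of -4.17 ± 0.48 (adjusted p = 0.000994). ID1 measured 188, 188 and 70.2 CPM and 29.1, 17.2 and 11.5 CPM (-2.94 ± 0.62, adjusted p = 0.00960), and ID2 15.4, 9.34 and 4.16 CPM and 1.55, 0.796 and 1.47 CPM (-2.92 ± 0.55, adjusted p = 0.00490). Controls of passage 8 were the lowest for all 3 genes and still lay above every treated library. BMP7 was the remaining fall. The rises were BMP4, a ligand, and FST, which encodes follistatin, an activin and BMP antagonist that went from 246, 194 and 234 CPM to 546, 512 and 633 CPM (1.33 ± 0.21, adjusted p = 0.00240).

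**Figure D3:**
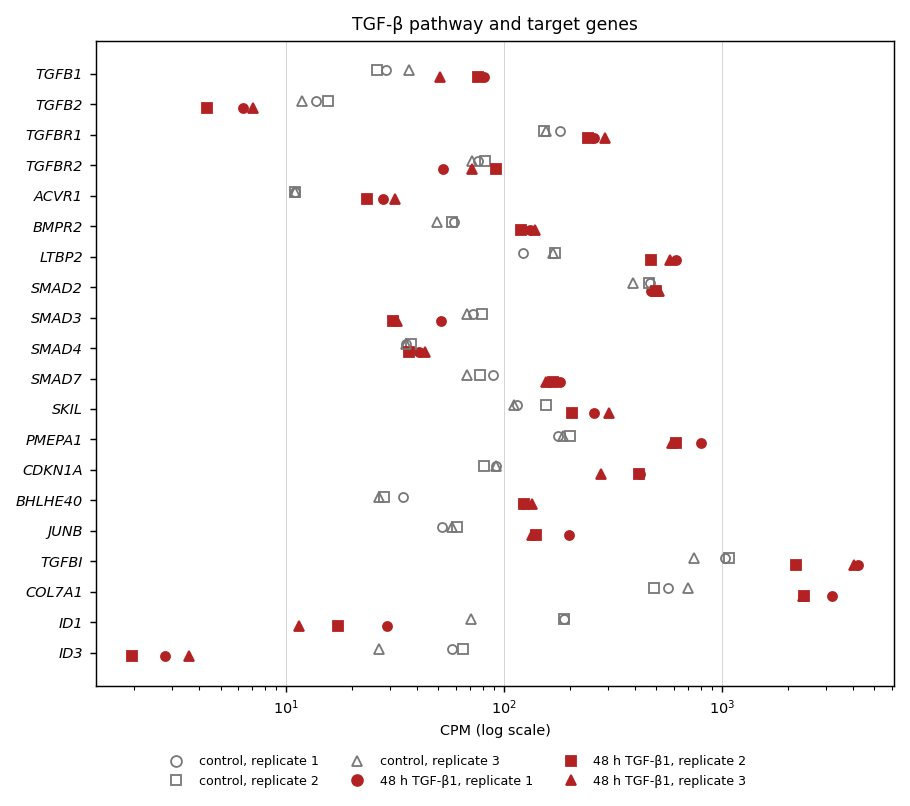
Points show the level in each library (CPM, log axis) of genes of the TGF-β pathway and of its targets, with open grey symbols for controls and filled red symbols for 48 h. SMAD7, SKIL, PMEPA1 and TGFBI lie higher at 48 h in every library, SMAD3, ID1 and ID3 lie lower, and TGFBR2 overlaps between groups.

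Inhibitors of cyclin-dependent kinases changed in both directions. CDKN1A, which encodes the CDK inhibitor p21, rose from 91.8, 80.7 and 91.7 CPM to 420.2, 414 and 279 CPM (2.07 ± 0.18, adjusted p = 0.000318), and CDKN1C, which encodes p57, from 4.04, 4.67 and 6.23 CPM to 13.2, 12.2 and 10.1 CPM (1.25 ± 0.29, adjusted p = 0.0103). Of 10 CDK inhibitor and D cyclin genes, 3 rose (with CDKN2B) and 3 fell, namely CCND2, CDKN1B and CDKN2D, so the family did not move together (median -0.07). MYC, whose repression by TGF-β is a textbook feature of arrest in normal epithelium, was at 176, 223 and 223 CPM in controls and 171, 112 and 92.0 CPM at 48 h. Replicate 1 hardly differed from its control, and the test was not passed (-0.73 ± 0.55, adjusted p = 0.348). The MXD proteins and MXI1 compete with MYC for its partner MAX and repress transcription. MXD4 (chr4:2247432-2262294, minus strand, GRCh38) measured 13.7, 18.1 and 18.2 CPM in controls and 105, 102 and 91.5 CPM at 48 h, a log2 fold change of 2.58 ± 0.16 (adjusted p = 4.19e-05). MXI1 rose by 1.57 ± 0.34 (adjusted p = 0.00890) and MXD1 by 0.78 ± 0.18 (adjusted p = 0.0107), both stable. Of the 13 genes of the MYC network, 4 were higher, MLXIPL among them, and 3 lower, namely TXNIP, the related arrestin gene ARRDC4, and MXD3. TXNIP and ARRDC4 are known targets of the glucose-sensing factors encoded by MLXIP and MLXIPL.

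Genes known from quiescent cells and FOXO factors rose in part, 8 of 22 with 5 lower (median 0.05). YPEL5, a zinc-binding protein of a ubiquitin ligase complex, rose from 47.6, 40.7 and 37.2 CPM to 156, 97.0 and 144 CPM (1.66 ± 0.23, adjusted p = 0.00152). CCNG2, an atypical cyclin linked to arrest, rose from 35.9, 26.8 and 32.3 CPM to 64.8, 77.0 and 77.7 CPM (1.21 ± 0.17, adjusted p = 0.00133). Neither gene overlapped between groups. IRS1, the insulin receptor substrate, fell from 279, 227 and 236 CPM to 128, 124 and 126 CPM (-0.97 ± 0.14, adjusted p = 0.00186). The count of rises was 5 without control 3 or without 48 h replicate 1. Of 24 p53 targets, 6 rose (25.0%, against 14.9% of all tested genes) and 5 fell (20.8%, against 16.0%). TP53INP1, a stress-induced regulator of p53 and autophagy, went from 13.8, 9.34 and 11.7 CPM to 50.5, 45.6 and 57.4 CPM (2.14 ± 0.23, adjusted p = 0.000618), and PLK3 rose by 1.55 ± 0.17 (adjusted p = 0.000624). AEN, a p53-induced nuclease, fell from 80.2, 77.4 and 81.3 CPM to 33.0, 41.4 and 28.5 CPM (-1.21 ± 0.27, adjusted p = 0.0103), and MDM2, BAX, CCNG1 and PLK2 were the other p53 targets called lower. The 5 falls became 1, 3 and 2 without control 2, control 3 and 48 h replicate 1. The list therefore held changes in both directions beside the rise of CDKN1A.

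Cell-cycle genes were lower, and the number of calls among them differed between fits. Of 30 genes of the E2F and RB families and S phase, 18 were lower and 1 higher (median -1.40), and of 35 G2 and mitosis genes 29 were lower (median -1.5). No member of the mitosis list had a positive log2 fold change, and all 35 had every treated library below every control. Of all tested genes, 28.1% did. E2F2, an activating E2F, measured 30.8, 35.9 and 35.2 CPM in controls and 4.34, 4.53 and 3.75 CPM at 48 h (-3.01 ± 0.43, adjusted p = 0.00193), and E2F8, an atypical E2F, 47.1, 42.9 and 49.2 CPM and 4.84, 7.78 and 4.97 CPM (-2.98 ± 0.46, adjusted p = 0.00251). RBL2, which encodes the RB relative p130 of the quiescence-linked DREAM repressor, was the member called higher (0.48 ± 0.15, adjusted p = 0.0384), and its call was lost when any 1 library was left out (adjusted p up to 0.142). MKI67, the gene of the proliferation marker Ki-67, was at 557, 539.9 and 428 CPM in controls and 126, 214 and 164 CPM at 48 h, with no overlap. Its adjusted p was 0.0448, and 0.0642 with the passage as a block, and the call was lost when any 1 library was left out (adjusted p up to 0.137). Omitting control 1, 2 or 3 left 9, 7 or 9 of the 18 E2F and S phase calls, and omitting 48 h replicate 1 or 3 left 6 or 8. Of the 29 mitosis calls, 11, 10 or 15 were left on omitting control 1, 2 or 3. Omitting 48 h replicate 1, 2 or 3 left 5, 11 or 23, and the passage as a block left 18. DESeq2 called 35 mitosis genes and 21 E2F and S phase genes lower. The fit of control and 48 h libraries alone called 35 and 24. Median changes within passages 12, 13 and 8 were -2.03, -1.37 and -1.15 for the mitosis list, so direction was shared and size was not.

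The promoters of these cell-cycle genes are shown because the genes are textbook examples of control by E2F and DREAM complexes. Promoter sequences are from RefSeq (GRCh38.p14) and span 250 bases before to 50 after the annotated start, and 10996 tested genes had one. Motifs were chosen with the lists' directions known, were searched on both strands, and a match is a description and not a bound site. The letters TTTGAA, the core of the cell cycle homology region, occurred in 18 of 29 promoters of the mitosis list (62.1%) and in 10.0% of all promoters. The E2F letters TTTGGCGC occurred in 6 of 22 promoters of the E2F and S phase list (27.3%) and in 1.06% of all. Both list shares are traits of the lists and not of the change at 48 h. Of the list members with their list's letters, NUSAP1, TOP2A, CDK1 and E2F1 did not pass the test. Capitals mark the match in the promoter of KIF11, a mitotic kinesin (chr10:92592880-92593179, plus strand, here the reverse complement TTCAAA), and in that of E2F2 (chr1:23531184-23531483, minus strand).
KIF11: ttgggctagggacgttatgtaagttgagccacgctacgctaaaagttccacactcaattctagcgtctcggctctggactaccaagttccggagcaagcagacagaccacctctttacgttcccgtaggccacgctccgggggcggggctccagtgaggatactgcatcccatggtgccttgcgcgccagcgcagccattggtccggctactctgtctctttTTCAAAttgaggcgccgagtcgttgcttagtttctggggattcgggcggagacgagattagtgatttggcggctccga
E2F2: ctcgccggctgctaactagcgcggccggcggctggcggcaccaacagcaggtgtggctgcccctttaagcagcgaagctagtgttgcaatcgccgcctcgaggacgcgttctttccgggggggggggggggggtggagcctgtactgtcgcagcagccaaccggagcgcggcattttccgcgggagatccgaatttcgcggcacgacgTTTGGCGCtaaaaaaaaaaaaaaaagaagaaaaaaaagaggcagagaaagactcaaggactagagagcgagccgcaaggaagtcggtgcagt

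Replication-coupled histone genes and repair genes fell with the cell cycle. Of 26 histone genes, 24 were lower (median -2.21). Histone transcripts mostly lack the poly(A) tail, near-identical copies may share reads, and the counting of such reads is not given in the sources used here, so single histone genes are uncertain. H2BC13 measured 276, 325 and 288 CPM in controls and 33.7, 44.2 and 46.9 CPM at 48 h (-2.83 ± 0.60, adjusted p = 0.0102), and H1-2, a linker histone gene, 1208, 1549 and 1323 CPM and 332, 386 and 505 CPM (-1.74 ± 0.32, adjusted p = 0.00431). Both calls were stable, and their groups did not overlap. The histone count became 15, 10 and 14 without control 1, 2 and 3 and 7, 13 and 13 without 48 h replicate 1, 2 and 3. It was 21 with the passage as a block, 24 in DESeq2 and 25 in the fit of control and 48 h libraries alone. Of 26 homologous recombination and Fanconi genes, 19 were lower (median -1.15). RAD54B, a recombination helicase, fell from 10.7 ± 1.11 CPM to 2.88 ± 1.20 CPM (SD, n = 3; -1.90 ± 0.40, adjusted p = 0.00696), a stable call. The repair count was 12, 11 and 12 without control 1, 2 and 3, and 8 and 11 without 48 h replicates 1 and 3. With the passage as a block it was 18, in DESeq2 20, and in the fit of control and 48 h libraries alone 23.

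Ribosome assembly genes were lower at 48 h in all passages. These genes encode the nucleolar factors that transcribe, modify and fold ribosomal RNA, a process tied to growth. All 31 were called lower, with log2 fold changes between -1.39 and -0.49 and a median of -1.16, and 26 of the calls were stable. The count stayed between 26 and 29 when 1 library was left out. RRP9, a component of the U3 small nucleolar particle, measured 40.3 ± 0.575 CPM in controls (SD, n = 3) and 15.4 ± 3.34 CPM at 48 h (-1.39 ± 0.20, adjusted p = 0.00182). POLR1B, the second-largest subunit of RNA polymerase I, measured 65.0, 63.1 and 56.6 CPM and 26.3, 21.1 and 23.7 CPM (-1.38 ± 0.15, adjusted p = 0.000601). NOLC1, a nucleolar phosphoprotein, measured 283, 253 and 291 CPM and 119, 112 and 93.1 CPM (-1.35 ± 0.26, adjusted p = 0.00531). In each of these genes every treated library lay below every control. NCL, the abundant nucleolar protein nucleolin, fell from 1043, 702 and 958 CPM to 433, 385 and 377 CPM (-1.18 ± 0.25, adjusted p = 0.00705). Within passages 12, 13 and 8 the list medians were -1.09, -1.03 and -1.15, the closest to each other of the falling lists in the plot of passage medians. Among small nucleolar RNAs, which guide ribosomal RNA modification and of which 50 were tested, 9 were lower (18.0%, near the 16.0% of all tested genes) and 1 higher (median -1.04).

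Genes of the ribosome itself and of other protein-making steps changed less. Of 42 cytosolic ribosomal protein genes, 9 were lower (21.4%, against 16.0% of all tested genes) and none higher (median -0.47). However, 35 had all treated libraries below all controls, against a share of 28.1% among all tested genes. RPS3A fell from 16.5, 18.4 and 16.8 CPM to 9.82, 10.4 and 9.37 CPM (-0.80 ± 0.18, adjusted p = 0.00863). The count of 9 became 5, 2 and 4 without control 1, 2 and 3 and 4, 4 and 2 without 48 h replicate 1, 2 and 3, and it was 24 in a fit of the control and 48 h libraries alone. Of 20 tRNA synthetase genes, KARS1, FARSA, FARSB and VARS1 were lower and WARS1, which interferons also induce, was higher. The WARS1 call was lost without control 1 or 2 or 48 h replicate 1. KARS1 fell by 0.75 in log2 units (adjusted p = 0.00606). The calls of the list were fewer, with 2 lower, without control 2 or 48 h replicate 1. Nuclear genes of oxidative phosphorylation were lower in 9 of 36 (25.0%, median -0.21), of which CYC1, the cytochrome c1 subunit, was the stable one (153, 171 and 162 CPM against 92.5, 94.9 and 78.7 CPM, -0.87 ± 0.14, adjusted p = 0.00254). That count became 3 and 2 without control 1 and 2, and 2, 5 and 4 without 48 h replicates 1, 2 and 3. The 13 protein-coding genes of the mitochondrial genome had log2 fold changes from -0.21 to 0.32, and 0 were called by edgeR or DESeq2, with 0 at an unadjusted p under 0.05 in edgeR.

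Lysosome and autophagy genes moved the other way. Of 34, 17 were higher and none lower (median 0.59), and 8 calls were stable. Omitting control 1, 2 or 3 left 11, 10 or 8 of the rises, and omitting 48 h replicate 1 left 9. WIPI1, which marks forming autophagosomes, measured 4.52, 4.62 and 4.08 CPM in controls and 19.0, 19.7 and 23.0 CPM at 48 h (2.22 ± 0.22, adjusted p = 0.000492). NPC1, the transporter that moves cholesterol out of lysosomes, measured 64.3, 82.9 and 69.6 CPM and 174, 192 and 173 CPM (1.32 ± 0.14, adjusted p = 0.000624). Neither gene overlapped between groups, and the 3 treated libraries of each lay close together. SQSTM1, the autophagy receptor p62, measured 57.6, 84.0 and 79.2 CPM and 257, 123 and 201 CPM (1.39 ± 0.27, adjusted p = 0.00562), with the smallest value in passage 13. TFEB and TFE3, factors known to drive lysosomal genes, were both called higher, TFE3 with a stable call. MITF, of the same family, had a negative log2 fold change and did not pass the test.

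The promoters of RRP9 and NEU1, a lysosomal sialidase called higher, are shown because the E-box CACGTG is read both by MYC with MAX and by the TFEB family. These letters occurred in 11 of 26 promoters of ribosome biogenesis genes (42.3%), in 7 of 24 of lysosome and autophagy genes (29.2%) and in 9.73% of all promoters. All 31 tested genes of the ribosome biogenesis list were called lower, so the 11 with the letters could not differ from the rest. Of the 7 lysosome and autophagy genes with the letters, 2 were called higher, NEU1 with a stable call, and the other 5 did not pass the test. In that list as a whole, 17 of 34 were called higher. A link between the letters and the changes was not tested. Capitals mark the match in RRP9 (chr3:51941855-51942154, minus strand) and in NEU1 (chr6:31862772-31863071, minus strand).
RRP9: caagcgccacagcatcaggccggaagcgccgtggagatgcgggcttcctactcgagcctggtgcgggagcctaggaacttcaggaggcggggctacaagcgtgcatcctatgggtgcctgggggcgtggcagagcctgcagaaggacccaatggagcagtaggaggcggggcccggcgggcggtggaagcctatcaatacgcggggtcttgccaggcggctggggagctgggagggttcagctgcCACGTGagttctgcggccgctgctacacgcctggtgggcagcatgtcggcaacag
NEU1: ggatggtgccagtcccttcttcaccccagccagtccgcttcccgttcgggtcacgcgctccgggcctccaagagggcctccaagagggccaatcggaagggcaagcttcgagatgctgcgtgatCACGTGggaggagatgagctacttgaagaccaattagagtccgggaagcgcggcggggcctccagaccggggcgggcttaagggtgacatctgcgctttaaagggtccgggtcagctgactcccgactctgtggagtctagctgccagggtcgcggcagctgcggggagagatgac

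**Figure D4:**
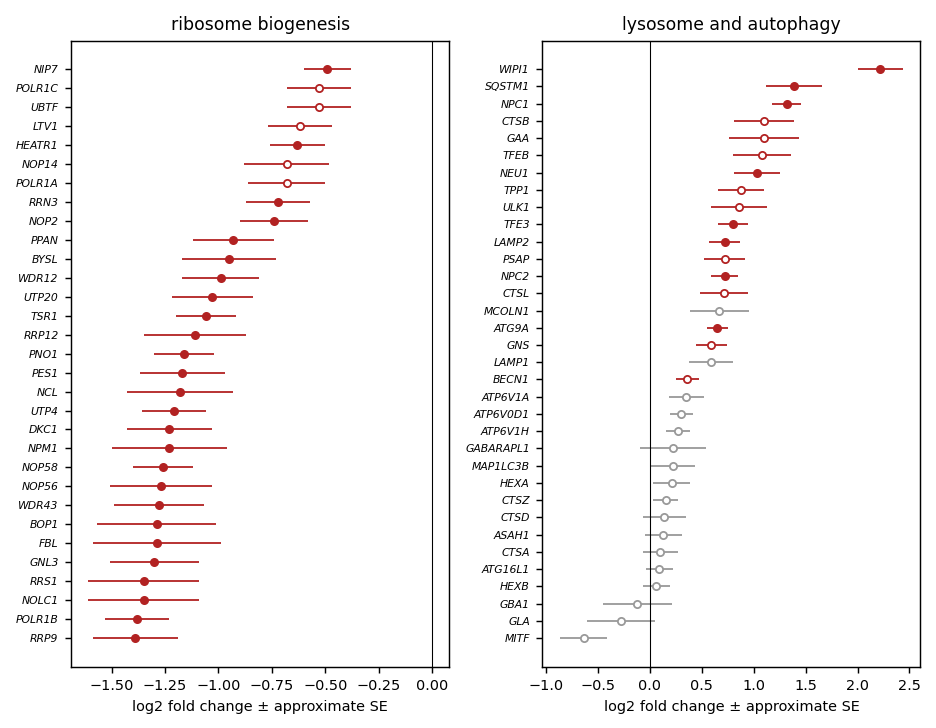
Points show the log2 fold change (48 h against control) of each tested member of the ribosome biogenesis list (left) and of the lysosome and autophagy list (right), with bars of 1 approximate SE on each side. Filled red points are stable calls, open red points other calls and open grey points genes that did not pass the test, and every gene on the left lies below 0.

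Lipid synthesis genes rose together with their regulators. Cells make cholesterol and fatty acids under the control of the SREBP factors, which are released from the endoplasmic reticulum when sterols are low. Of 33 genes, 30 were higher and 1 lower (median 1.83), and 21 of the rises were stable. SREBF2, which encodes the SREBP of the cholesterol branch, measured 54.5, 56.5 and 61.4 CPM in controls and 146, 158 and 160.2 CPM at 48 h (1.43 ± 0.14, adjusted p = 0.000485). SREBF1, which encodes that of the fatty acid branch, measured 132, 126 and 121 CPM and 386, 424 and 223 CPM (1.45 ± 0.23, adjusted p = 0.00224). The groups did not overlap for either gene. MSMO1, a sterol demethylase, rose from 51.8 ± 4.85 to 443 ± 214 CPM (3.10 ± 0.39, adjusted p = 0.00120), and was highest in passage 8. ELOVL6, a fatty acid elongase, was the gene called lower, and its call was lost without control 1 or 2 or without 48 h replicate 1 or 3 (adjusted p up to 0.0895). The sterol regulatory core TCACNCCAC was found in 1 of 26 promoters of the list (3.85%), that of SREBF2, and in 1.06% of all promoters.

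The LXR receptors sense oxysterols and drive cholesterol export. Of 8 tested genes of these receptors and their targets, 4 rose (median 0.91), and all 4 calls were stable. ABCG1, a cholesterol exporter, measured 2.71, 1.88 and 2.58 CPM in controls and 53.3, 45.6 and 7.74 CPM at 48 h (3.90 ± 0.84, adjusted p = 0.0106). The passage 8 library rose far less than the others, and the largest adjusted p with 1 library left out was 0.0486. APOE, a lipid carrier, measured 1.39, 0.591 and 2.51 CPM and 11.6, 5.45 and 8.88 CPM (2.56 ± 0.50, adjusted p = 0.00586). SMPDL3A and NR1H2, the gene of LXRβ, were the other rises. PPARA, the receptor that drives fatty acid oxidation, rose from 22.4, 23.3 and 24.9 CPM to 89.9, 68.6 and 76.9 CPM (1.74 ± 0.13, adjusted p = 0.000175). It was 1 of the 2 genes called higher (15.4%, near the 14.9% of all tested genes) among the 13 of lipid droplets and fatty acid oxidation. DGAT2, an enzyme of triglyceride synthesis, was the 1 called lower, a call lost without control 1, 2 or 3 or without 48 h replicate 1.

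Matrix genes rose, among them chains of laminin-332, the laminin of the epidermal basement membrane. Of 31 collagen and matrix genes, 17 were higher and none lower (median 1.29), and 12 calls were stable. COL7A1 (chr3:48564073-48595267, minus strand, GRCh38), the collagen of anchoring fibrils, measured 563, 489.5 and 702 CPM in controls and 3197, 2379 and 2359.6 CPM at 48 h (2.18 ± 0.24, adjusted p = 0.000649). The α3 chain gene LAMA3 measured 1365, 1013 and 1237 CPM and 3930.5, 8565 and 3534 CPM (2.15 ± 0.40, adjusted p = 0.00436), and the β3 chain gene LAMB3 1407, 1521 and 1569 CPM and 5238, 7554 and 3745 CPM (1.88 ± 0.30, adjusted p = 0.00236). Both chain genes were highest at 48 h in passage 13. COL5A1, a chain of the fibrillar collagen V, rose from 78.1, 94.2 and 79.0 CPM to 617, 570.2 and 554 CPM (2.79 ± 0.20, adjusted p = 0.000155), with treated libraries close to each other. COL1A1 measured 12.4, 9.61 and 10.8 CPM and 87.2, 35.3 and 64.2 CPM (2.51 ± 0.55, adjusted p = 0.0117), and lost its call without control 2 (adjusted p = 0.0503).

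FN1, the fibronectin gene, shows how passage bears on single genes. It measured 8.92, 10.0 and 53.8 CPM in controls and 52.1, 60.1 and 291 CPM at 48 h, so that the passage 8 control lay within the range of the treated libraries of the other passages. Within each passage the log2 change was 2.53, 2.57 and 2.43. The log2 fold change of FN1 was 2.48 ± 0.97 with an adjusted p of 0.0852, which did not pass the test, and with the passage as a block the adjusted p was 0.000492. It was also called by DESeq2 and without control 3, and across the alternatives its adjusted p ran from 2.31e-05 to 0.324.

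Enzymes that modify collagen, integrins and proteases followed in part. Of 18 modification and crosslinking genes, TGM2, P4HA2, P3H1 and BMP1 rose with stable calls and LOXL3 was lower. These shares of 22.2% and 5.56% compare with 14.9% and 16.0% of all tested genes. TGM2, a transglutaminase that crosslinks matrix proteins, measured 0.663, 1.18 and 2.44 CPM in controls and 9.33, 14.7 and 6.52 CPM at 48 h (2.86 ± 0.45, adjusted p = 0.00235). The LOXL3 call was lost without 48 h replicate 1 or 3. Of 12 integrin genes, 8 were higher and none lower (median 1.12), with 5, 4 and 4 calls without control 1, 2 and 3 and 5 without 48 h replicate 3. ITGA2, the α2 chain of a collagen receptor, measured 223 ± 23.5 CPM and 1066 ± 363 CPM (SD, n = 3; 2.26 ± 0.27, adjusted p = 0.000809). ITGA6, the laminin-binding α6 chain of hemidesmosomes, measured 1930.2, 1320.2 and 1675 CPM and 4229, 4262 and 4465 CPM (1.40 ± 0.19, adjusted p = 0.00131). Both were stable and did not overlap between groups. ITGAV, the αv chain, measured 434, 416 and 471 CPM and 1727, 1040.1 and 3348 CPM (2.21 ± 0.61, adjusted p = 0.0253), and its call was lost without any 1 library except 48 h replicate 2 (adjusted p up to 0.0865).

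Of 26 matrix protease and inhibitor genes, 7 were higher and 1 lower (median 0.92), and 11 were higher with the passage as a block. SERPINE2, which encodes protease nexin-1, measured 91.6, 74.3 and 84.1 CPM in controls and 639, 511 and 365 CPM at 48 h (2.60 ± 0.24, adjusted p = 0.000444). MMP2, a gelatinase, measured 7.96, 6.77 and 8.38 CPM and 26.5, 26.5 and 28.8 CPM (1.82 ± 0.21, adjusted p = 0.000702). SERPINB5, which encodes maspin, a serpin of epithelial cells, measured 101, 71.0 and 82.9 CPM and 289, 292 and 313 CPM (1.81 ± 0.17, adjusted p = 0.000444). Each of these genes had every treated library above every control. SERPINB2, which encodes the plasminogen activator inhibitor PAI-2, was the member called lower, from 6.69, 4.08 and 11.5 CPM to 0.997, 0.796 and 0.163 CPM (-3.42 ± 0.75, adjusted p = 0.0100). Kallikrein-related peptidases, serine proteases of squamous epithelium, were lower in 4 of the 10 genes of their list (median -0.76), namely KLK5, KLK6, KLK8 and KLK10. KLK5 measured 612, 416 and 467 CPM and 297, 318 and 267 CPM (-0.76 ± 0.16, adjusted p = 0.00825) and KLK8 8.86, 5.53 and 4.37 CPM and 1.85, 1.72 and 0.978 CPM (-2.02 ± 0.33, adjusted p = 0.00270). The KLK10 call was lost without any 1 library except 48 h replicate 3.

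Mesenchymal genes rose in part, and the classical cadherin and vimentin genes did not pass the test. Of 15 mesenchymal markers and EMT factors, 4 were higher (26.7%, against 14.9% of all tested genes) and none lower (median 0.65). The rises were PDPN, SOX4 and SNAI2 with stable calls, and L1CAM, whose call was lost without control 1 or 2. PDPN, the invasion-linked glycoprotein podoplanin, measured 117, 117 and 139 CPM in controls and 397, 494 and 407 CPM at 48 h (1.80 ± 0.16, adjusted p = 0.000318). SOX4, a transcription factor that TGF-β is known to induce, measured 26.3, 16.6 and 22.3 CPM and 57.6, 57.8 and 38.5 CPM (1.24 ± 0.20, adjusted p = 0.00250). VIM, the vimentin gene, was at 208, 204 and 200.3 CPM and 181, 455 and 280.1 CPM, with passage 12 slightly below its control (adjusted p = 0.258). CDH2, the N-cadherin gene, was at 14.4 ± 8.16 and 14.5 ± 2.33 CPM (adjusted p = 0.996). CDH1, the E-cadherin gene, was at 361, 240.3 and 284 CPM and 386, 458 and 360.1 CPM and was not called (0.44 ± 0.18, adjusted p = 0.0802), although DESeq2 and the fit without control 1 called it higher. Each of these 3 cadherin and vimentin genes had overlapping groups.

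Of 23 epithelial identity factors, 8 were lower and 2 higher (median -0.40). EHF, an ETS factor of epithelia, measured 54.2, 43.3 and 50.2 CPM in controls and 14.6, 14.2 and 15.7 CPM at 48 h (-1.73 ± 0.21, adjusted p = 0.000828), and the factors ELF3, FOXA1, SOX2 and TFAP2A also fell with stable calls. PRSS8, a membrane-anchored protease of epithelia, rose by 1.32 ± 0.24 (adjusted p = 0.00410) as 1 of the 2 rises. TP63, the master factor of squamous epithelium, was at 451, 422 and 437 CPM and 628, 589 and 526 CPM, with every treated library higher, and did not pass the test (adjusted p = 0.0920). The count of falls was 5 without control 1, without control 2 or without 48 h replicate 2, and the count of rises was 1 without control 2 or 3 or either of 48 h replicates 1 and 3.

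Keratin genes moved both ways. KRT15, KRT8, KRT80 and KRT18 were lower with stable calls, and KRT14 and KRT17 higher, of 14 tested (median 0.22). The shares of 28.6% lower and 14.3% higher compare with 16.0% and 14.9% of all tested genes. KRT8, a keratin of simple epithelia, measured 9.10, 35.2 and 27.9 CPM in controls and 3.19, 5.64 and 4.65 CPM at 48 h (-2.43 ± 0.46, adjusted p = 0.00530). KRT15, a keratin of basal cells, measured 20.1, 23.5 and 16.0 CPM and 3.74, 3.74 and 2.85 CPM (-2.52 ± 0.37, adjusted p = 0.00174). KRT80, a keratin of differentiating epithelia, fell by 2.40 in log2 units (adjusted p = 0.00641). KRT14, the keratin of the basal layer, measured 4861, 2275 and 3710.5 CPM and 8788, 6688 and 8013 CPM (1.11 ± 0.29, adjusted p = 0.0173), and KRT17, a keratin of stressed and wounded epithelium, 1532, 801 and 1021 CPM and 4639, 2129.8 and 3130.1 CPM (1.56 ± 0.42, adjusted p = 0.0202). Both calls were lost without control 2 or 3 and without 48 h replicate 1 (adjusted p up to 0.0621 and 0.0797), so the count of rises was 0 in those fits, and it was 4 with the passage as a block. KRT5, the partner of KRT14, did not pass the test (0.56 ± 0.30, adjusted p = 0.187). In the cornified envelope list, 1 of 16 genes was lower, S100A9, and none higher, and that call was lost without 48 h replicate 1 or 3.

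Cell junction genes rose and fell side by side. Of 19 desmosome and hemidesmosome genes, 7 were higher and 1 lower (median 0.68), of which ITGA6 alone was stable. The 7 became 1 without control 2, control 3 or 48 h replicate 1 and 3 without 48 h replicate 3, and the call of PKP2, the lower gene, was lost when any 1 library was left out. Of 22 tight and gap junction genes, 6 were higher (27.3%) and 5 lower (22.7%), against 14.9% and 16.0% of all tested genes. The connexin gene GJB5 measured 61.5, 39.4 and 48.0 CPM in controls and 119, 129 and 106 CPM at 48 h (1.25 ± 0.19, adjusted p = 0.00186). The claudins, which set the permeability of tight junctions, went opposite ways, CLDN4 from 4.28, 7.89 and 5.30 CPM to 10.3, 19.9 and 11.7 CPM (1.26 ± 0.29, adjusted p = 0.0108) and CLDN7 from 8.74, 9.40 and 10.8 CPM to 4.74, 3.55 and 3.59 CPM (-1.28 ± 0.24, adjusted p = 0.00490). The 5 falls of the list became 2 or 3 when any 1 library was left out. Among 27 contractile and actin-binding genes, 6 were higher (22.2%, against 14.9% of all tested genes) and none lower (median 0.22). Of the 6, PALLD, LIMA1, CALD1 and FHL2 were stable. CALD1, which encodes the actin-binding caldesmon, measured 171, 138 and 164 CPM and 362, 262 and 383 CPM (1.09 ± 0.18, adjusted p = 0.00251), while ACTA2, TAGLN and MYL9 were not called.

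Secreted signals and their receptors were among the less familiar changes. Of 28 guidance genes (ephrins, semaphorins and plexins), 14 were higher and 2 lower (median 0.44), and 10 of the rises were stable. PLXNB1, a semaphorin receptor, measured 44.0, 40.2 and 40.6 CPM in controls and 135, 84.2 and 82.2 CPM at 48 h (1.27 ± 0.23, adjusted p = 0.00390), and PLXND1, another plexin, 2.47, 3.28 and 3.15 CPM and 7.88, 10.5 and 8.31 CPM (1.58 ± 0.22, adjusted p = 0.00131). The falls were EFNB2 and SEMA3A, and both or 1 of their calls were lost without any 1 library except 48 h replicate 2. Of 23 WNT pathway genes, 7 were higher and 1 lower (median 0.21), with 4 rises without control 1, 2 or 3 or without 48 h replicate 1. WNT7A, a ligand, measured 29.3, 33.6 and 32.5 CPM and 128, 105 and 108 CPM (1.84 ± 0.16, adjusted p = 0.000318), and WNT9A 4.46, 5.69 and 8.24 CPM and 36.9, 23.4 and 28.9 CPM (2.28 ± 0.28, adjusted p = 0.000914). ZNRF3, a ubiquitin ligase that removes WNT receptors and is itself a WNT target, fell from 41.0 ± 1.29 CPM to 21.4 ± 1.72 CPM (SD, n = 3; -0.94 ± 0.15, adjusted p = 0.00254). These 3 calls were stable and their groups did not overlap. HES1, a Notch target, fell by 1.10 in log2 units (adjusted p = 0.00432), while LFNG, which glycosylates Notch receptors, rose by 0.70 ± 0.15 (adjusted p = 0.00862).

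Among 25 cytokine, chemokine and NF-κB feedback genes, 5 were lower and 2 higher (median -0.23), and 5 were higher with the passage as a block. Of all tested genes, 16.0% were lower and 14.9% higher. The 5 falls lay near the first of these shares, and the 2 rises, 8.00% of the list, lay under the second. The falls were IL6, IL1B, CXCL6, CXCL3 and LIF, of which the first 3 were stable, and 3 were called without 48 h replicate 1. CCL5, a T cell chemokine, rose from 14.1, 13.5 and 29.2 CPM to 98.6, 67.9 and 109.5 CPM (2.29 ± 0.44, adjusted p = 0.00669), and IL11, a cytokine that TGF-β is known to induce, was the other rise. Of 37 interferon-stimulated genes, 20 were higher and none lower (median 2.37), and all 37 had a positive log2 fold change. Omitting control 1, 2 or 3 gave 12, 5 or 8 such calls, omitting 48 h replicate 1 or 3 gave 12, and 5 calls were stable. The count was 26 without 48 h replicate 2 and 25 with the passage as a block. It was 28 in DESeq2 and 28 in the fit of control and 48 h libraries alone. IFI44L measured 4.64, 1.34 and 3.08 CPM in controls and 277, 20.2 and 546 CPM at 48 h (6.54 ± 1.51, adjusted p = 0.0138), and its call was lost without control 2 or 3 (adjusted p up to 0.0578). OAS2, an oligoadenylate synthetase, measured 37.5, 28.0 and 30.9 CPM and 318, 109 and 465 CPM (3.21 ± 0.68, adjusted p = 0.0102), a stable call. In both genes the passage 13 library rose least.

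The genes that sense nucleic acids or carry interferon signals rose in 8 of 18 (median 0.56), 6 of them with stable calls. IFNE, an interferon of epithelia, measured 0.603, 0.483 and 0.573 CPM in controls and 7.13, 11.1 and 6.60 CPM at 48 h (3.89 ± 0.30, adjusted p = 0.000197). STING1, the adaptor of cytosolic DNA sensing, measured 21.5, 17.2 and 20.9 CPM and 43.9, 48.5 and 38.6 CPM (1.14 ± 0.14, adjusted p = 0.000955). Unlike the interferon-stimulated genes, neither was lowest at 48 h in passage 13. The receptor and kinase genes IFNAR1, IFNGR2 and JAK1 and the adaptor gene MAVS were the other stable rises. IFNB1 had 3, 2 and 3 counts in the controls and 2, 0 and 8 at 48 h, too few to test. The interferon response core, GAAA followed by any 2 letters and a second GAAA, occurred in 18 of 29 promoters of interferon-stimulated genes (62.1%) and in 2.86% of all promoters. This share is a trait of the list and not of the change at 48 h. Of the genes with the core, BST2, DDX60, DDX60L, IFI44L, IFITM1, MX1, OAS3 and PARP14 were called higher, BST2 alone with a stable call. The others, among them ISG15, IFIT1 and IFI6, did not pass the test. The promoter of BST2, which encodes the antiviral protein tetherin and had a stable call, holds overlapping matches in capitals (chr19:17405581-17405880, minus strand).
BST2: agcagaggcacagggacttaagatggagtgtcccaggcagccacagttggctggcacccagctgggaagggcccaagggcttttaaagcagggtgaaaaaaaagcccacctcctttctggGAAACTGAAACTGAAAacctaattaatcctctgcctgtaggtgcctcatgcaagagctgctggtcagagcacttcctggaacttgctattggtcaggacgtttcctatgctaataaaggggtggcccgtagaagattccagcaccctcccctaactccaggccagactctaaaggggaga

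Metabolic stress genes gave mixed values. Of 26 glycolysis and hypoxia genes, 6 were higher (23.1%) and 3 lower (11.5%), against 14.9% and 16.0% of all tested genes. Their median was -0.35, and with the passage as a block 7 were lower. PFKFB4, which sets the level of a glycolytic activator, measured 9.71, 8.22 and 10.2 CPM in controls and 48.7, 30.9 and 43.5 CPM at 48 h (2.13 ± 0.21, adjusted p = 0.000492). VEGFA, the angiogenic factor, measured 227 ± 66.0 CPM and 728 ± 248 CPM (SD, n = 3; 1.68 ± 0.36, adjusted p = 0.00830), and the hypoxia-responsive NDRG1 328, 232 and 277 CPM and 1067, 588 and 597 CPM (1.43 ± 0.27, adjusted p = 0.00477). CA9, a carbonic anhydrase and a standard marker of hypoxia, went the other way, from 32.7, 49.8 and 42.2 CPM to 2.14, 8.76 and 1.63 CPM (-3.30 ± 0.87, adjusted p = 0.0221), and its call was lost without control 2 or 3 or without 48 h replicate 1 or 3 (adjusted p up to 0.0799). The enolase gene ENO1 fell from 2776, 3137 and 2694 CPM to 1464, 1851 and 1492 CPM (-0.84 ± 0.17, adjusted p = 0.00698), a stable call. The 6 rises became 3 without control 2 or 3, and the 3 falls became 1 without control 2, control 3 or 48 h replicate 3. So known targets of hypoxia-inducible factors were found on both sides.

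Of 21 antioxidant genes that NRF2 is known to drive, 11 were higher and none lower (median 1.00), but only 2 of the calls were stable, among them PGD, of the pentose phosphate pathway. AKR1C2 measured 7.29, 5.58 and 7.17 CPM in controls and 262, 30.3 and 522 CPM at 48 h (5.35 ± 1.35, adjusted p = 0.0191), and its call was lost without control 1, 2 or 3 (adjusted p up to 0.0728). Its near-identical copy AKR1C1 may share reads with it. The cystine transporter gene SLC7A11 measured 149, 205 and 165 CPM and 901, 191 and 808 CPM, so passage 13 was below its control (1.87 ± 0.55, adjusted p = 0.0318), and with the passage as a block the adjusted p was 0.0817. Its call was also lost without any 1 library except 48 h replicate 2. Of the 11 calls, 2, 4 or 3 were left on omitting control 1, 2 or 3, and 4 on omitting 48 h replicate 1 or 3. Chaperone genes held calls in both directions. HSPA1A, an inducible cytosolic HSP70 whose copy HSPA1B is near-identical, measured 53.7, 50.5 and 59.9 CPM and 282, 189.7 and 302 CPM (2.24 ± 0.23, adjusted p = 0.00052). HSPD1, the mitochondrial chaperonin HSP60, measured 493, 571 and 468 CPM and 225, 200.2 and 199 CPM (-1.30 ± 0.23, adjusted p = 0.00344). Of the 17 chaperone genes, 3 were higher (17.6%) and 4 lower (23.5%), against 14.9% and 16.0% of all tested genes. The 4 falls became 1 or 2 when any 1 library was left out.

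Immediate early and clock genes held calls in both directions. Of 19 AP-1 and immediate early genes, 3 were higher (15.8%) and 4 lower (21.1%), with a median of -0.26. Of all tested genes, 14.9% were higher and 16.0% lower, near these shares. JUNB rose as given above, JUND and KLF6 were the other rises, and FOSB, a FOS relative, fell from 67.6, 74.3 and 46.1 CPM to 16.8, 6.31 and 21.9 CPM (-2.07 ± 0.40, adjusted p = 0.00594). ATF3, a stress-induced bZIP factor, fell from 79.6, 89.8 and 98.5 CPM to 13.7, 7.23 and 24.2 CPM (-2.58 ± 0.38, adjusted p = 0.00225), and KLF4 fell by 1.12 in log2 units (adjusted p = 0.00543). KLF10, itself a known early target of TGF-β, was the fourth fall. Of 16 clock genes, 3 were higher (18.8%) and 5 lower (31.2%), with a median of -0.43. PER1 and PER2, repressors of the clock, went from 37.5, 29.2 and 36.7 and 53.7, 43.7 and 47.9 CPM to 17.1, 14.9 and 18.3 and 28.1, 20.3 and 21.2 CPM (-1.04 ± 0.23 and -1.06 ± 0.16, adjusted p = 0.00885 and 0.00195). BHLHE40, which also represses clock genes, rose from 34.5, 28.1 and 26.7 CPM to 122, 123 and 135 CPM. Harvest times of day are not stated in the labels used here, and the 5 falls became 2 or 3 when any 1 library was left out.

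The response was compared within passages by the change of each 48 h library from the control of the same passage. Of the 4779 called genes, 4772 changed in the same direction in all 3 passages, which the choice of called genes favours. The median absolute log2 change over these genes was 0.95, 0.89 and 0.89 in passages 12, 13 and 8. The size differed more for some lists than for others. Interferon-stimulated genes had medians of 2.46, 1.5 and 2.84 and antioxidant genes 1.33, 0.34 and 1.25, with passage 13 lowest in both. Collagens and matrix genes had medians of 1.32, 1.31 and 1.20 and TGF-β targets 1.19, 1.38 and 1.28. Keratins had 0.16, 0.93 and -0.19, and desmosome genes 0.56, 0.94 and 0.22, with passage 13 highest in both. SLC38A2, an amino acid transporter, measured 1123, 1192 and 1132 CPM in controls and 4612, 1726 and 4327 CPM at 48 h, so that passage 13 rose least (1.63 ± 0.41, adjusted p = 0.0158). Its call was lost without control 1, 2 or 3 or without 48 h replicate 1 (adjusted p up to 0.0598). With 1 library for each passage and time, these differences between passages could not be tested.

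**Figure D5:**
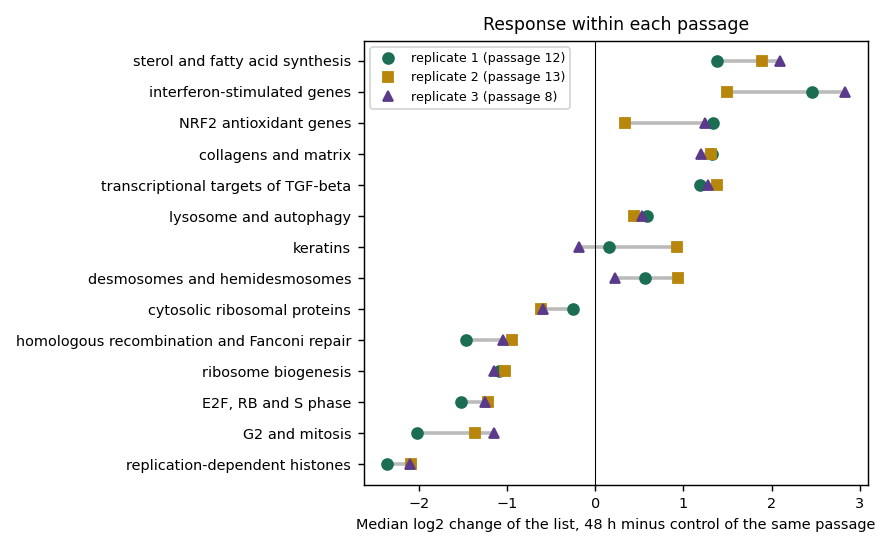
Points show, for 14 gene lists, the median over members of the log2 change from the control to the 48 h library of the same passage (circle passage 12, square passage 13, triangle passage 8). Ribosome biogenesis and collagen medians nearly coincide across passages, antioxidant and interferon-stimulated medians are lowest in passage 13, and keratins lie on both sides of 0.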

How the data were processed

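Total RNA of UPCI-SCC-040 cells was sequenced, and per the labels the deposited value for each gene is a raw read count in 1 library (build hg38). Per the submitters' processing notes, featureCounts 1.5.0-p1 and the aligner STAR 2.5.2a were among the tools, beside bcl2fastq 2.17.1.14 for base calls and FastQC 0.11.5 for read quality. Gene models, strandedness and the treatment of multiply aligned reads were not given in the sources used here, so overlapping, antisense and near-identical genes may share or lose reads.

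Of 58233 Ensembl identifiers, 57895 were in GENCODE 29 (GRCh38), which gave types and coordinates, and the other 338 held 0.0145% to 0.0202% of counts. Groups and passages came from the labels. Tests used edgeR 4.0.16 (R 4.3.3) with TMM scaling, filterByExpr, all 9 libraries in 1 model of group, robust quasi-likelihood F tests with 6 residual degrees of freedom and Benjamini-Hochberg adjustment at 0.05. An approximate SE is the size of a log2 fold change divided by the root of its F statistic. No 2 replicates agreed within sampling noise (chi-square per degree of freedom 8.99 to 74.2). Control and 48 h libraries of 1 number share a passage per the labels, and their deviations from the group means correlated at 0.113, 0.0781 and 0.121. Simulated data held 67, 67 and 66 genes changed 1.5-fold, 2-fold and 4-fold. The test recovered 4.48%, 32.8% and 69.7% of them, with 11 false calls among 15141 genes. Far fewer genes were changed there than were called in the data. The Benjamini-Hochberg adjustment depends on that number, so these shares cannot be carried over to the data.

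The members, gene lists, motifs and naming rule were all chosen with earlier results of these data known. Values of some genes that the rule names are not reported here. The rule took the 12 largest stable rises and falls of at least 10 CPM, the 10 largest CPM changes each way, up to 4 members of each list, and fixed pathway genes. Members named only to complete a count, or as uncalled examples, were named after their values were seen. Alternatives were DESeq2 1.42.0, other scaling factors and filters, the passage block, a fit of 2 groups, a 1.5-fold threshold, and omission of libraries.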

Additional observations from a re-analysis of the deposited data

How the results depend on the processing

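Of the 4779 calls (2301 higher, 2478 lower), a test against a 1.5-fold change kept 1109, 641 higher and 468 lower. Leaving out 1 library or 1 passage gave 765 to 4599 calls, 409 to 2259 higher and 356 to 2340 lower. The low ends came without replicate 1 (765) and without replicate 2 (1375), and omitting 1 library gave 2860, 2631 and 2991 for control 1, 2 and 3 and 2837, 3920 and 3668 for 48 h replicate 1, 2 and 3. The share of calls that were higher was 48.1%, and 64.9% without replicate 2. With the passage as a replicate block, 2565 genes were higher and 2548 lower, and 4514 of the 4779 calls were among them. Of the named genes, 5 lost and 1 gained their call under the block, and those that bear on a result are given beside it. DESeq2 gave 2766 higher and 2599 lower, DESeq2's factors in edgeR 2423 and 2370, upper-quartile factors 2575 and 2205 (median shift 0.05), no filter 2666 and 2273, a filter of 1 CPM 2258 and 2515, and the fit of control and 48 h libraries alone 3189 and 2972, or 3075 and 2806 with the block. No called gene that is named changed sign under these alternatives. Of uncalled ones, the log2 fold change of TGFBR2 was -0.09, and 0.10 without 48 h replicate 1, and the log2 fold change of CDH2 was 0.00 and ran from -0.32 without replicate 1 to 0.72 without replicate 2. The spread between replicates, which the test estimated from all 9 libraries, limits the detection of small changes. Genes varied most among the 72 h libraries, with a median SD of 0.3 on the log2 scale. The 48 h libraries had a median SD of 0.239 and the control libraries one of 0.150. Leaving the 72 h libraries out of the model gave 6161 calls in place of 4779. The part of each group in the limit was not tested.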

Other observations

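Gene classes outside the lists differed in how many of their members were called. Of 550 long noncoding RNA genes tested, 87 were higher (15.8%, against 14.9% of all tested genes) and 38 lower (6.91%, against 16.0%), with a median log2 fold change of 0.27, against a median of -0.01 over 12686 protein-coding genes. Of 824 antisense RNA genes, 85 were higher (10.3%) and 48 lower (5.83%), and without a stated strand setting their reads cannot be told apart from those of the opposite gene. The share of genes called grew with the mean level, from 11.8% of genes under 1 CPM to 39.7% of genes over 100 CPM.

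DRAP1, a corepressor subunit that inhibits transcription by RNA polymerase II, was among the genes that lost the most CPM. It measured 911, 923 and 1056 CPM in controls and 289, 402 and 232 CPM at 48 h, a log2 fold change of -1.65 ± 0.32 (adjusted p = 0.00556), lower in 3 of 3 passages, and its call was stable. ERBB2, the receptor HER2, rose from 73.7, 77.5 and 74.2 CPM to 151, 127 and 120.1 CPM (0.82 ± 0.12, adjusted p = 0.00174), also in 3 of 3 passages, while NRG1, which encodes a ligand of the related receptors ERBB3 and ERBB4, was lower (-0.62 ± 0.16, adjusted p = 0.0163), a call lost without control 2, control 3 or 48 h replicate 1 (adjusted p up to 0.0685). TAPBP, which loads peptides on MHC class I, rose from 163, 159 and 194 CPM to 328, 309 and 358 CPM (0.95 ± 0.22, adjusted p = 0.0106). It was the stable one of 3 rises among 21 checkpoint and antigen presentation genes (14.3%, near the share of all tested genes), which became 1 without control 1 or 48 h replicate 2 and 7 with the passage as a block.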
